A study of Sus scrofa with 3 samples.

Results

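Genes of antioxidant and metal defence were followed in minipig lung after transient closure of the left pulmonary artery: the quinone reductases NQO1 and NQO2, the glutathione synthesis gene GCLC and the metallothionein MT-2B. They are 4 of the 6765 genes that the platform annotation names singly, and they were read by 8 of 23935 non-reporter probe sets. The members were taken by gene symbol and put forward with their signals on these arrays already known, so all values of the 4 genes are given as a description with no test. The 3 arrays are the operated lung (left side, where arterial flow was stopped and later restored while the bronchus was left alone and ventilation went on), the non-operated lung (right side after the same surgery) and the lung of a sham minipig. Age, sex, the length of occlusion and reperfusion, and whether both ischemia-reperfusion lungs came from 1 animal are not stated in the labels. Each group is 1 array, so there is no spread between animals, and no difference below has a p-value or a replicate check. Lung identity was checked on SFTPC, the surfactant protein C gene of alveolar type 2 cells, whose log2 signal was 14.52 in the operated lung, 14.56 in the non-operated lung and 14.44 in sham lung. These values lie close to the array maxima of 14.79, 14.92 and 14.83. They speak to lung tissue only, and their likeness does not show an equal cell make-up.

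NRF2, the product of NFE2L2, is a transcription factor that KEAP1 holds in the cytoplasm and sends to the proteasome. Oxidants and electrophiles modify KEAP1, after which NRF2 accumulates, pairs with small MAF proteins and binds antioxidant response elements near genes for quinone reduction, glutathione synthesis, thioredoxin recycling and heme breakdown. Metallothioneins are small, cysteine-rich proteins that bind zinc and copper; their genes respond to metals through the factor MTF1, and also to glucocorticoids and oxidants. In lung, both systems are known for limiting oxidant injury of epithelium and endothelium.

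Signals are MAS5 values, an Affymetrix summary of the probes of a set, deposited on the log2 scale. Low values were floored at the array's own median, which on the linear scale was 158.7 in the operated lung, 158.6 in the non-operated lung and 160.7 in sham lung. A ratio is a difference of log2 signals with values at or below the floor set to the floor. It is a lower bound where 1 array lay at the floor, and none is given where both did. A gene was counted as higher or lower at 2-fold, which is 1 on the log2 scale. Of the 8 member probe sets, 4 lay above the floor on 3 arrays, 2 on 1 array and 2 on none.

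NQO1, GCLC and MT-2B had higher signals in both lungs after ischemia-reperfusion than in sham lung, whereas NQO2 stayed near the floor. In the operated lung 3 of 4 members were at least 2-fold higher than in sham, and 0 were lower, where 8.65% of 5097 counted genes were higher and 8.79% lower. In the non-operated lung 3 of 4 were higher and 0 lower, where 8.96% of 5113 counted genes were higher and 8.55% lower. Because the members were chosen on these contrasts, nothing is read from those shares. The sham array serves both comparisons, so they are not independent of each other. Between the operated and the non-operated lung 0 of 4 members passed 2-fold in either direction. Few genes did, since 0.0607% of 4944 counted genes were higher and 0.182% lower.

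**Figure D1:**
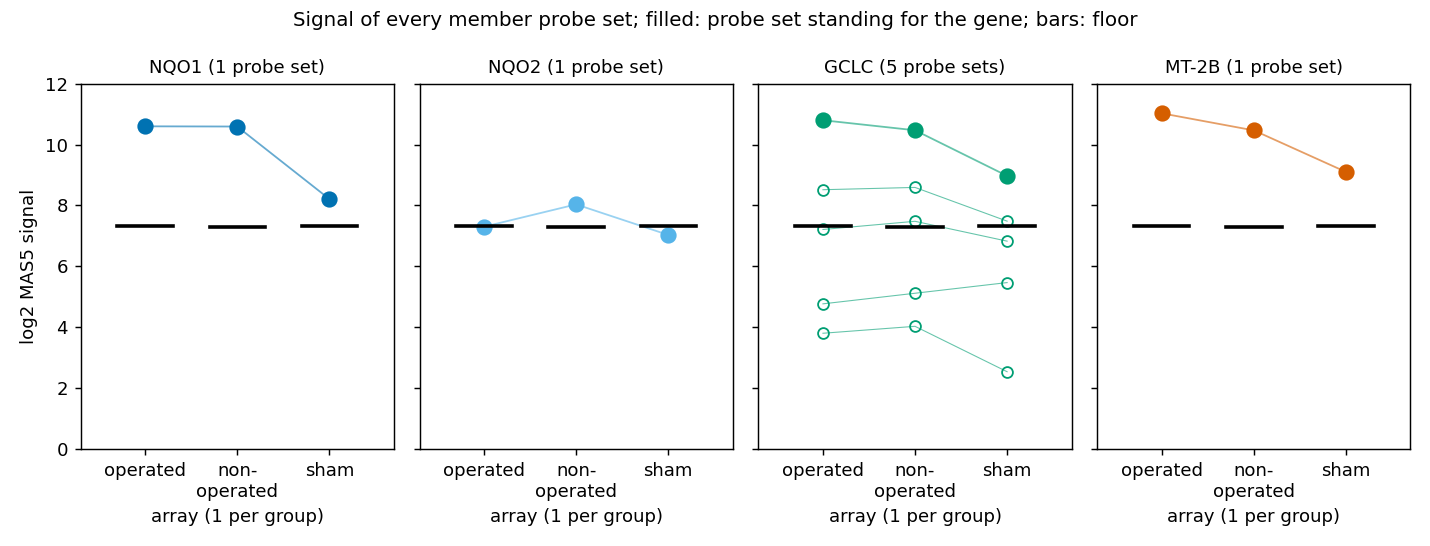
Log2 MAS5 signal of each member probe set (points) on the operated, non-operated and sham arrays, 1 array per group, with the floor of each array as a black bar. NQO1, MT-2B and the filled GCLC probe set lie above the floor on all 3 arrays and are lowest on the sham array, while NQO2 crosses the floor only in the non-operated lung, and 2 GCLC probe sets lie below the floor throughout.

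NQO1 reduces quinones directly to hydroquinones with NADH or NADPH and is widely used as a readout of NRF2 activity. Its single probe set (gene 100286873) had a linear signal of 1551 in the operated lung and 1543 in the non-operated lung, against 297 in sham lung. Both lungs of the procedure were high and nearly equal, and sham alone was low, though still above the floor. NQO1 was 5.22-fold higher in the operated lung than in sham, a log2 ratio of 2.38, and 5.20-fold higher in the non-operated lung, a log2 ratio of 2.38. Of all counted genes, 43 had a ratio as high or higher in the operated lung and 42 in the non-operated lung. Between the operated and the non-operated lung the log2 ratio was 0.007.

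NQO2 is the related reductase that takes electrons from dihydronicotinamide riboside in place of NADPH. Its single probe set (gene 100739771) had a linear signal of 157.9 in the operated lung, 262 in the non-operated lung and 131 in sham lung. The operated value lay just under the floor of 158.7, so that the non-operated lung was the only array with NQO2 above its floor. No ratio is given for the operated lung against sham, since neither value exceeded its floor; the unfloored log2 difference was 0.27. NQO2 signal in the non-operated lung exceeded sham by at least 1.63-fold, with an unfloored log2 difference of 1.002. In the operated lung it was at least 1.65-fold lower than in the non-operated lung, a log2 ratio of -0.73 or below. Of 4944 counted genes, 55 had a ratio as low or lower in that comparison. NQO1 and NQO2 therefore had different patterns on these 3 arrays: NQO1 was level between both lungs of the procedure, and the NQO2 signal was highest in the non-operated lung.

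GCLC encodes the catalytic subunit of glutamate-cysteine ligase, the rate-limiting enzyme of glutathione synthesis. The gene (100522018) is read by 5 probe sets, and the set with the highest mean signal stood for it. Its linear signal was 1781 in the operated lung and 1417 in the non-operated lung, against 502 in sham lung. The operated lung was highest and sham lowest. The gene was 3.55-fold higher in the operated lung than in sham, a log2 ratio of 1.83, and 2.82-fold higher in the non-operated lung, a log2 ratio of 1.50. Of all counted genes, 111 had a ratio as high or higher in the operated lung and 194 in the non-operated lung.

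The other GCLC probe sets gave smaller or unusable differences. The other set above the floor on 3 arrays had linear signals of 366 in the operated lung, 386 in the non-operated lung and 179 in sham lung, and was 2.04-fold and 2.15-fold higher than sham in the operated and non-operated lung. A further set straddled the floor, with 148 in the operated lung, 179 in the non-operated lung and 114 in sham lung. The remaining pair lay below the floor on every array, with linear signals from 5.83 to 44.3. Over all 5 sets without a floor, 4 were higher and 1 lower than sham in each lung, and the log2 difference averaged 0.76 ± 0.97 in the operated lung and 0.88 ± 0.77 in the non-operated lung (SD over 5 probe sets). Over the sets that could be counted, the log2 ratio was 1.43 ± 0.56 in the operated lung (SD over 2 probe sets) and 0.92 ± 0.69 in the non-operated lung (SD over 3, of which the straddling set is a bound). The direction against sham was thus shared by the sets with usable signal, and the size depended on which set was read. The sham signal of 179 in the dimmer set above the floor on 3 arrays lay close to the floor of 160.7.

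Between the operated and the non-operated lung, the GCLC set with the highest signal had a log2 ratio of 0.33, whereas the other 4 had unfloored differences below 0. The counted sets averaged 0.03 ± 0.27 (SD over 3 probe sets), so the difference between both lungs was no larger than the spread between probe sets. GCLM, which encodes the modifier subunit of the same ligase, had log2 signals of 7.92 in the operated lung, 7.93 in the non-operated lung and 7.86 in sham lung. Its log2 ratio was 0.07 in each lung against sham. That ratio rests on 1 counted probe set of 2, with dim linear signals of 242, 243 and 232 in operated, non-operated and sham lung. On these arrays the brightest GCLC set was more than 2-fold higher after the procedure and the counted GCLM set was not. This contrast depends on the probe sets read and was not tested.

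MT-2B is the metallothionein gene whose own probe set lay above the floor on all 3 arrays (gene 396827). Its linear signal was 2084 in the operated lung and 1413 in the non-operated lung, against 549 in sham lung. The 3 arrays were ordered operated, non-operated, sham. MT-2B was 3.80-fold higher in the operated lung than in sham, a log2 ratio of 1.93, and 2.57-fold higher in the non-operated lung, a log2 ratio of 1.36. Of all counted genes, 95 had a ratio as high or higher in the operated lung and 262 in the non-operated lung. In the operated lung it was 1.47-fold higher than in the non-operated lung, a log2 ratio of 0.56, and 71 of 4944 counted genes had a ratio as high or higher. Among the members this was the largest difference in favour of the occluded side.

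Other metallothionein probe sets did not share one direction. MT1A had log2 signals of 7.38 in the operated lung, 7.30 in the non-operated lung and 5.31 in sham lung, which put it above the floor only in the operated lung and by a narrow margin. Its unfloored log2 differences against sham were 2.07 in the operated lung and 1.99 in the non-operated lung. MT3, the brain-enriched metallothionein, lay below the floor on every array, with log2 signals of 4.17, 3.31 and 3.14 in operated, non-operated and sham lung. A further probe set, annotated to both MT1A and MT3 and therefore assigned to neither, lay above the floor on all 3 arrays and ran opposite to MT-2B. Its log2 signal was 8.68 in the operated lung, 9.05 in the non-operated lung and 9.38 in sham lung, with log2 ratios against sham of -0.70 and -0.33 in the operated and non-operated lung. By the order of genes in RefSeq's pig table (assembly Sscrofa11.1), 0 protein-coding genes lie between MT-2B and MT3, and 3, among them MT1D, lie between MT-2B and MT1A. Metallothionein genes are close in sequence, so signal assigned to MT-2B may come in part from its relatives, and the gene assignment is uncertain.

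**Figure D2:**
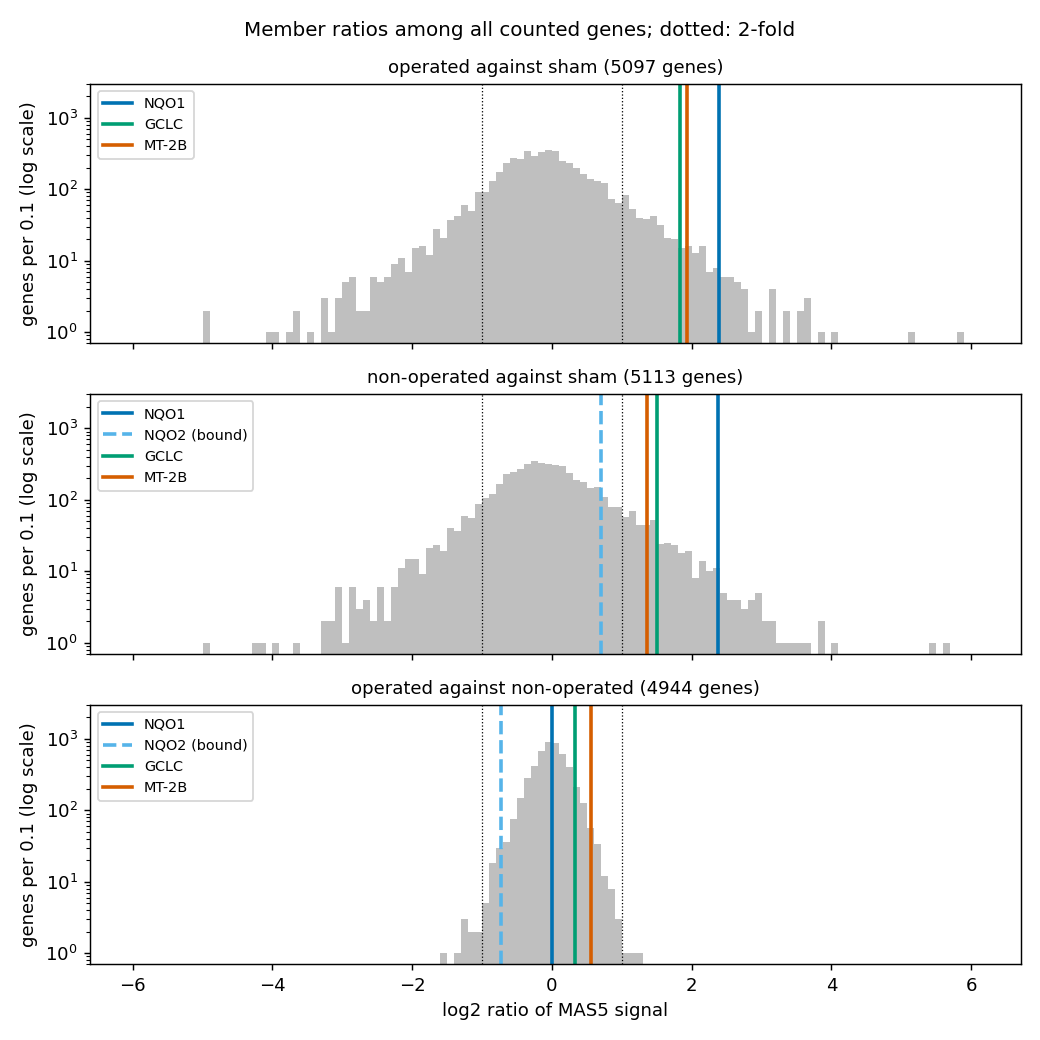
Number of counted genes (log axis) by log2 ratio of MAS5 signal in each comparison, with the members as vertical lines, dashed where the ratio is a bound. NQO1, GCLC and MT-2B stand on the upper side of both distributions against sham, and in the much narrower distribution of operated against non-operated lung NQO2 lies at the lower edge and MT-2B towards the upper edge.

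The only internal measure of error is the disagreement between probe sets of a gene on the same arrays. Over 1004 genes with several counted probe sets, the SD of the log2 ratio between sets had a median of 0.26 in the operated lung against sham, and 0.69 at the 90th percentile. Over 919 genes it was 0.14 for operated against non-operated lung, and 0.36 at the 90th percentile. NQO1, NQO2 and MT-2B have 1 probe set each and so no such value of their own. These spreads do not cover differences between animals, RNA preparations or repeat arrays, and no member ratio is judged by them. The median log2 ratio of all counted genes was -0.11 in the operated lung and -0.10 in the non-operated lung against sham; relative to it, NQO1 stood at 2.50 and 2.48, GCLC at 1.94 and 1.60, and MT-2B at 2.04 and 1.47 in the operated and non-operated lung.

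Of the NRF2 regulators listed, 1 of 12 has a probe set with a single gene name, SQSTM1, which encodes the autophagy receptor p62 that binds KEAP1. Its log2 signal was 12.65 in the operated lung and 12.61 in the non-operated lung, against 11.15 in sham lung. SQSTM1 was 2.82-fold higher in the operated lung and 2.75-fold higher in the non-operated lung. NFE2L2 and KEAP1 themselves were not analysed here.

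Among quinone, carbonyl and detoxifying reductases other than the members, 4 of 14 counted genes were at least 2-fold higher in the operated lung than in sham and 0 lower, and the median log2 ratio was 0.55 against -0.11 for all counted genes. In the non-operated lung 5 of 14 were higher and 0 lower, and the median was 0.38 against -0.10. Shares over all counted genes were 8.65% higher and 8.79% lower in the operated lung, and 8.96% and 8.55% in the non-operated lung. The lists were written with earlier results of these data known, so the counts describe these arrays and support nothing further. AKR1CL1, an aldo-keto reductase, had the highest ratio, at 7.89-fold in the operated and 7.84-fold in the non-operated lung, though its 3 probe sets ran from a log2 ratio of 0.56 to 2.98 in the operated lung. PTGR1, which acts on leukotriene B4 and prostaglandin derivatives, was 3.72-fold higher in the operated and 3.25-fold higher in the non-operated lung.

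TXNRD1, the cytosolic thioredoxin reductase and a known NRF2 target, was 2.58-fold higher in the operated and 2.01-fold higher in the non-operated lung, and its 3 probe sets lay between log2 ratios of 0.94 and 1.50 in the operated lung. EPHX1, the microsomal epoxide hydrolase, was 2.01-fold higher in the operated and 2.39-fold higher in the non-operated lung. The quinone reductase relative CRYZ had log2 ratios of 0.97 and 1.13 in the operated and non-operated lung. The other counted members of the list, such as the aldehyde dehydrogenase ALDH2 at -0.26 and -0.51, did not reach 2-fold in either lung. Of all 14 counted genes of this list other than NQO1 and NQO2, 10 had ratios above 0 and 4 below in the operated lung. In the non-operated lung these were 9 and 5. Most of all counted genes lay below 0, with medians of -0.11 in the operated and -0.10 in the non-operated lung.

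Of 20 counted glutathione genes other than GCLC, 1 passed 2-fold upwards and 1 downwards in the operated lung, where their median log2 ratio was -0.02. In the non-operated lung 1 passed upwards and 0 downwards, and the median was -0.003. The shares over all counted genes were 8.65% upwards and 8.79% downwards in the operated lung, and 8.96% and 8.55% in the non-operated lung. HAGH, the hydrolase that completes methylglyoxal detoxification, was 2.65-fold higher in the operated and 2.54-fold higher in the non-operated lung. Of its 2 probe sets, only 1 could be counted in the operated lung. In the non-operated lung this set had a log2 ratio of 1.34, and the other had at least 0.19. GSTA4, a glutathione transferase for lipid peroxidation products, was lower by at least 2.06-fold on the operated side and had a log2 ratio of -0.9994 in the non-operated lung. Glutathione reductase GSR had log2 ratios of -0.16 and -0.25, and the glutathione peroxidase GPX1 0.07 and 0.21, in the operated and non-operated lung. GSS, the synthetase that completes glutathione, had ratios of -0.27 and -0.31, so that of GCLC, GCLM and GSS only GCLC passed 2-fold.

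In the thioredoxin and peroxiredoxin list, 4 of 17 counted genes were at least 2-fold higher and 1 lower in the operated lung, where the median log2 ratio was 0.25. In the non-operated lung 5 passed upwards and 2 downwards, and the median was 0.12. All counted genes had shares of 8.65% upwards and 8.79% downwards in the operated lung, and 8.96% and 8.55% in the non-operated lung. Besides TXNRD1, the methionine sulfoxide reductase MSRB3 was 2.81-fold higher in the operated and 2.60-fold higher in the non-operated lung. PRDX6, a peroxiredoxin with phospholipase activity that takes part in surfactant turnover, was 2.49-fold and 2.35-fold higher in the operated and non-operated lung. TXNIP, the inhibitor of thioredoxin, was 2.06-fold and 2.31-fold higher. PRDX4, the peroxiredoxin of the endoplasmic reticulum, was 2.14-fold lower in the operated and 2.07-fold lower in the non-operated lung. The sestrin gene SESN1 had log2 ratios of 0.90 and 1.35, and the mitochondrial peroxiredoxin PRDX3 -0.91 and -1.04, in the operated and non-operated lung, so each passed 2-fold in the non-operated lung only; that difference was not tested.

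Superoxide and peroxide removal genes had 1 of 10 counted members at least 2-fold higher in each lung, PRDX6 in both, and 0 lower. GPX4 entered this count by its brighter set only. For this and the following lists, the shares over all counted genes were 8.65% higher and 8.79% lower in the operated lung. In the non-operated lung they were 8.96% and 8.55%. The cytosolic superoxide dismutase SOD1 had log2 ratios of -0.68 and -0.70 and catalase, CAT, 0.52 and 0.45 in the operated and non-operated lung. Of 8 counted genes that supply NADPH, 0 were higher and 1 lower in the operated lung, and 1 was higher and 1 lower in the non-operated lung. PGD, a dehydrogenase of the pentose phosphate pathway, was 2.74-fold higher in the non-operated lung and had a log2 ratio of 0.82 in the operated lung. NNT, the mitochondrial transhydrogenase, was 2.25-fold and 2.37-fold lower. Of 6 counted heme and iron genes, 1 was higher in each lung, the heme oxygenase HMOX1. Its log2 ratio was 3.65 in the operated and 3.83 in the non-operated lung. The ferritin chain FTH1 had ratios of 0.19 and 0.21 in the operated and non-operated lung. For the ferritin chain FTL, the brighter of 2 probe sets had 0.23 and 0.29, and the other had 0.89 and 1.07. The size for FTL thus depended on which set was read.

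**Figure D3:**
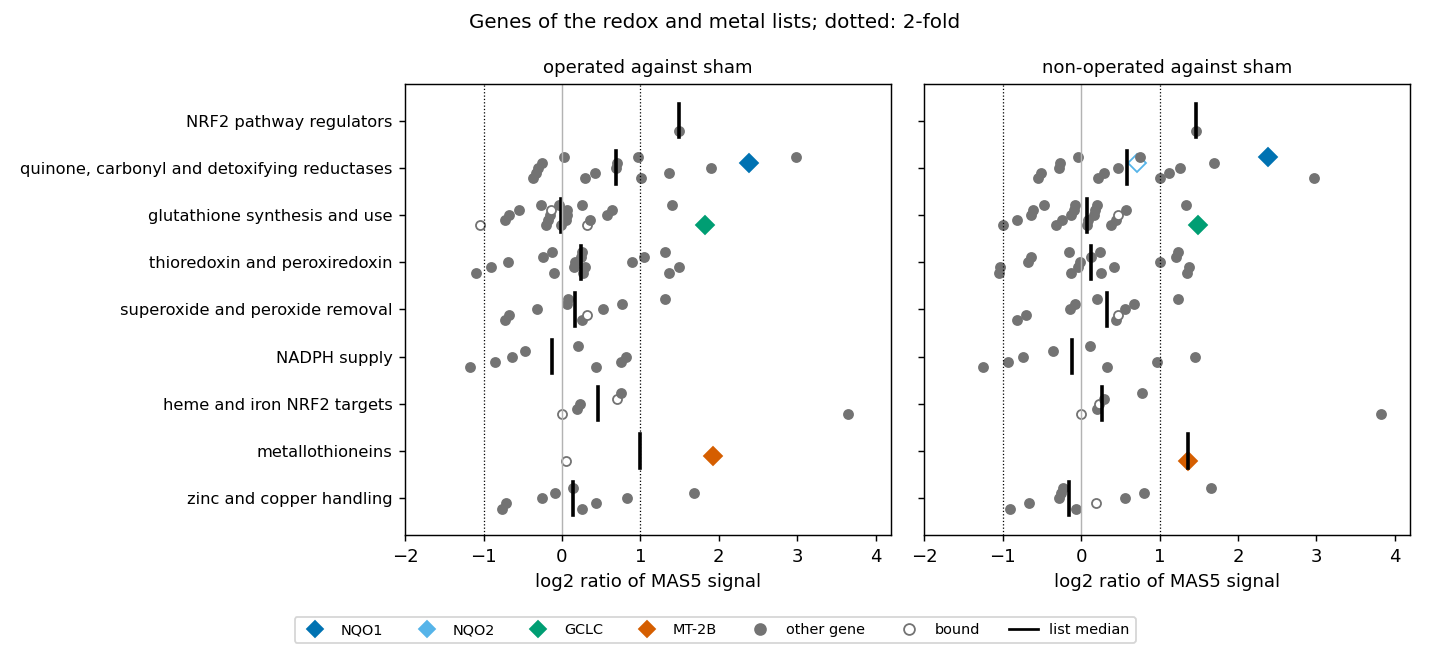
Log2 ratio of MAS5 signal for each counted gene (points) of the redox and metal lists in the operated and non-operated lung against sham, with the list median as a black bar, members as coloured diamonds and bounds as open symbols. NQO1, GCLC and MT-2B lie to the right of the 2-fold line in both panels, while the medians of the glutathione, thioredoxin, peroxide, NADPH and zinc and copper lists lie between -0.15 and 0.33. In the operated and non-operated panels the medians are 0.68 and 0.59 for the reductases and 0.46 and 0.26 for heme and iron. They are 0.99 and 1.36 for the metallothioneins, where 0.99 is the midpoint of MT-2B and a bound for MT1A and 1.36 is MT-2B alone. SQSTM1, the only counted NRF2 regulator, has 1.50 and 1.46. Medians include the members.

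Genes with the pattern nearest to each member were sought among 4383 genes above the floor on all 3 arrays, by the Euclidean distance between log2 signals centred on each gene's mean over the 3 arrays. With 3 arrays such likeness rests on 3 values per gene, and for NQO2 only the non-operated value lay above the floor. For NQO1 the nearest were HOPX at a distance of 0.04, GABARAPL1 at 0.05 and FZD4 at 0.05. For GCLC they were CAVIN2 at 0.04, MECOM at 0.05 and TEK at 0.08. For MT-2B they were CPM at 0.04, ZFP42 at 0.11 and ACVR1 at 0.11, and for NQO2 VCAN at 0.06, ECI2 at 0.07 and AVPI1 at 0.08. HOPX is among the alveolar type 1 markers and TEK, the angiopoietin receptor, among the endothelial markers described next.

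**Figure D4:**
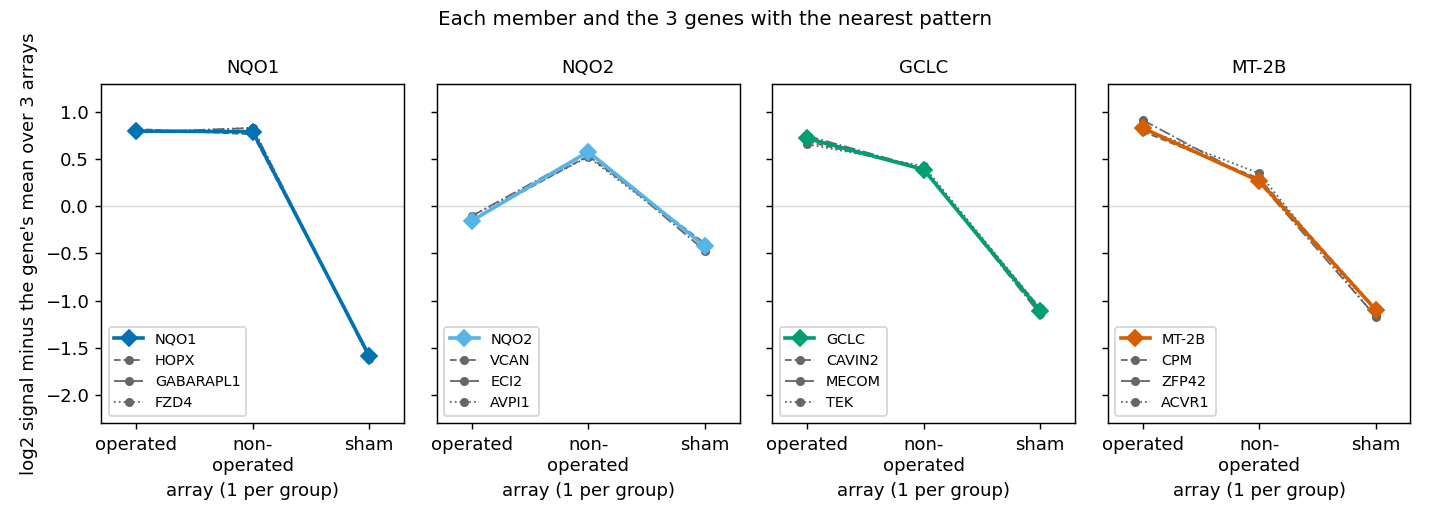
Log2 signal minus the gene's own mean over the 3 arrays, for each member (diamonds) and the 3 genes nearest to it (small points), on the operated, non-operated and sham arrays. NQO1 is level between both lungs of the procedure, GCLC and MT-2B step down from operated to non-operated to sham lung, and NQO2 peaks in the non-operated lung.

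Markers of several cell types differed between the arrays along with the members, and their part in the member ratios was not tested. In whole tissue, fewer cells of a type and less RNA per cell cannot be told apart. Beside each marker count below stand the shares over all counted genes, 8.65% higher and 8.79% lower in the operated lung. They were 8.96% and 8.55% in the non-operated lung. Of 8 counted endothelial markers, 8 were at least 2-fold higher in the operated and 7 in the non-operated lung than in sham, and the summed linear signal of the list was 17589, 19751 and 6449 in operated, non-operated and sham lung. KDR, FLT1 and TIE1 lay at or below the floor on every array. Of 6 alveolar type 1 markers, 4 were higher in the operated lung (AQP5, HOPX, CAV1 and CAV2) and 5 in the non-operated lung (with PDPN), with sums of 34755, 34379 and 12484 and 0 markers at the floor throughout.

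Macrophage markers had 5 of 6 counted members higher in the operated and 5 of 7 in the non-operated lung (CD163, MRC1, VSIG4, C1QA and C1QC in both), with sums of 26775, 26840 and 9032 in operated, non-operated and sham lung, and CD14 at or below the floor throughout. The neutrophil list had 3 of 3 counted members higher in each lung (S100A8, S100A9 and S100A12), with sums of 6876, 8440 and 1142, and MMP9, ELANE and LTF at or below the floor throughout. Lower in both lungs were 3 of 3 B-cell markers (CD79B, BLNK and TNFRSF17), with sums of 1537, 1353 and 7177, and 5 of 7 counted T-cell markers (CD3D, CD3G, CD2, LCK and CD247), with sums of 2269, 2411 and 5420 and CD4 at the floor throughout. Of 6 alveolar type 2 markers, 3 were higher in the operated lung (SFTPB, SLC34A2 and ETV5) and 1 in the non-operated lung (ETV5), with sums of 47587, 44842 and 36026, SFTPC being the largest term, and 0 markers at the floor throughout. SFTPB was also 2.18-fold higher in the operated than in the non-operated lung. Smooth muscle markers had 4 of 6 members higher in each lung (TAGLN, CNN1, DES and ACTG2), with sums of 20611, 22854 and 9986. Of 4 fibroblast markers, 0 were higher and 1, LUM, was lower in the operated lung and 0 passed 2-fold in the non-operated lung, with sums of 7329, 10062 and 11425. Of the 9 liver genes on the array, 7 were at or below the floor on every array, ALB among them. Of the 2 counted, TF was higher, with log2 ratios of 2.35 and 2.45 in the operated and non-operated lung. Of 3 counted red blood cell markers, 1 was higher in each lung, ALAS2, and 0 were lower, with sums of 1751, 1506 and 1155. The airway epithelial list had 1 counted gene, TFF3, with log2 ratios of 1.07 and 0.52.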

How the data were processed

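Lung RNA from minipigs was read on 3 Affymetrix porcine arrays, 1 per group, grouped by sample title. Per the labels' protocols, total RNA was extracted with TRIZOL and labelled with biotin by a 3' IVT kit. Per the submitters' processing notes the authors used MAS5; the notes give neither its version nor its scaling target. The deposited table holds 1 log2 signal per probe set and array, as its values show, with 0 further columns. After trimming 2% at each end, the linear means were 497.1, 496.8 and 496.2 for operated, non-operated and sham lung, so no further scaling was applied. No detection calls were used.

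Of 23999 probe sets, 64 reporter controls were left out. The platform annotation names 1 gene for 10069, several for 198 (not named) and none for 13668. The probe set with the highest mean log2 signal stood for a gene. Values at or below each array's median were set to it, and a gene was counted when above it on at least 1 of 2 arrays. With 1 array per group no test was possible, and precision is limited by how few arrays there are. Calculations used Python 3.11.15, numpy 2.4.6 and pandas 2.3.3, and were tested on simulated data. Alternatives were other floors, scalings, a pseudocount of 50 and other probe sets.

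The members and gene lists were chosen with earlier results of these data known. Named are all members, every measured NRF2 regulator and metallothionein, up to 5 genes per list beyond 2-fold against sham in either lung with counted probe sets on 1 side, and the 3 genes nearest in pattern to each member. CRYZ, ALDH2, GCLM, GSS, SESN1, PRDX3, GSR, GPX1, GPX4, GLO1, SOD1, CAT, FTH1, FTL, SLC31A1, NR3C1, HSD11B1 and SFTPC were chosen after their values were seen.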

Additional observations from a re-analysis of the deposited data

How the results depend on the processing

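NQO1, GCLC and MT-2B kept ratios of at least 2-fold against sham in both lungs under each floor, scaling and pseudocount tried. Over these the log2 ratio ran from 1.35 to 2.40 for NQO1, 1.55 to 1.84 for GCLC and 1.77 to 1.94 for MT-2B in the operated lung, and from 1.34 to 2.41, 1.22 to 1.52 and 1.21 to 1.38 in the non-operated lung, the lowest being bounds set by the 75th percentile floor. NQO2 in the operated lung against sham had no value in the main setting and 0.27 with no floor; against the non-operated lung it ran from -0.73 to -0.59. NQO2 in the non-operated lung against sham reached 1.002 with a 25th percentile floor and 1.002 with no floor, and had no value at the 75th percentile. GCLC by the mean or the lowest of its probe sets lay below the floor on all 3 arrays and gave no value. For operated against sham, genes at least 2-fold higher and lower numbered 230 and 197 at the 75th percentile floor and 744 and 877 with no floor. For non-operated against sham they numbered 245 and 194, and 814 and 848. For operated against non-operated lung they numbered 47 and 63 at the 25th percentile floor, 1 and 4 at the 75th, 231 and 319 with no floor, 21 and 27 with the pseudocount, and 6 higher with the mean of probe sets, against 3 and 9. The floor decides how many dim genes enter, which changes these counts by construction. Of 210 list medians recomputed, 19 moved by more than the median SD between probe sets, among them the quinone and carbonyl reductases in the operated lung, at 0.19 with the 75th percentile floor against 0.68. No paired analysis was possible because each group holds 1 array. Signal near the floor limits NQO2, MT1A, GCLM and 3 of 5 GCLC probe sets. It also limits the dimmer GCLC set above the floor on 3 arrays, whose sham signal was 179 against a floor of 160.7.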

Other observations

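Of 9 counted zinc and copper handling genes, 1 was at least 2-fold higher and 0 lower in the operated lung against sham. Their median log2 ratio was 0.14. In the non-operated lung 1 of 10 was higher and 0 lower, with a median of -0.15. Over all counted genes 8.65% were higher and 8.79% lower in the operated lung, and 8.96% and 8.55% in the non-operated lung. The gene past 2-fold was SLC31A2, a copper transporter of endosomes and lysosomes, at 3.21-fold in the operated and 3.16-fold in the non-operated lung. SLC31A1, the copper importer of the plasma membrane, had log2 ratios of 0.83 and 0.80 in the operated and non-operated lung. MTF1 and the zinc exporter SLC30A1 were not analysed here.

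Of 16 counted glucocorticoid-responsive genes, 9 were at least 2-fold higher in the operated lung and 12 in the non-operated lung against sham. In either lung 0 were lower, and the median log2 ratios were 1.36 and 1.43. Over all counted genes 8.65% were higher in the operated and 8.96% in the non-operated lung, and 8.79% and 8.55% were lower. The operated median was 0.98 when a gene's probe sets were averaged. By its brighter probe set PDK4 was at least 36.3-fold and 43.0-fold higher in the operated and non-operated lung, log2 ratios of 5.18 and 5.43. Its other set had 3.69 and 3.97. KLF9, KLF15, CEBPD and FKBP5 had log2 ratios of 2.47, 2.29, 2.26 and 2.18 in the operated lung. The lowest counted set there had 1.23 for CEBPD and 1.34 for FKBP5. Also counted were the receptor gene NR3C1, at -0.95 and -0.74, and the enzyme gene HSD11B1, at 0.09 and -0.08, in the operated and non-operated lung. Counted probe sets of NR3C1 lay on both sides of 0. Between the operated and the non-operated lung the median of this list was -0.17 with 13 of 16 ratios below 0. The median of all counted genes there was -0.02, and 54.3% of 4944 counted genes had a ratio at or below 0.007.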
